A study of Mus musculus with 12 samples.

Results

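Collagens are the main structural proteins of the extracellular matrix, and each is built from alpha chains wound into a triple helix. The collagen genes examined here were the 43 protein-coding genes whose symbol has the form of a collagen alpha chain, such as Col16a1, among 38087 genes with an Ensembl identifier. They were measured by mRNA sequencing of mouse colonic mucosa in 6 Sgo1-/+ libraries and 6 wild-type (WT) libraries. Sgo1-/+ mice carry 1 mutated copy of Sgo1, which encodes shugoshin 1, a protein that protects cohesion between sister chromatids at the centromere. The mice of both genotypes had been dosed with azoxymethane, a colon carcinogen, at 4 mg/kg and 2 doses weekly from week 8 to week 12 of age, with tissue taken at 9 months. Each group therefore stands for a genotype after the carcinogen, and no untreated samples were analysed here. The labels number the samples within a genotype without saying that each came from a separate mouse, and give no strain or sex, so p-values reflect only how far these samples spread, which may be technical.

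Fibrillar collagens such as types I and III form the banded fibrils of the lamina propria and submucosa and are made mainly by fibroblasts. Type IV collagen forms the sheet-like network of the basement membrane under the epithelium and around vessels and muscle cells. Multiplexins, the collagens XV and XVIII, sit in the basement membrane zone and carry glycosaminoglycan chains, and fibril-associated collagens bind to the surface of fibrils or link them to other matrix. In these classes the 43 genes comprised 11 fibrillar, 9 fibril-associated, 6 type IV, 6 type VI, 4 transmembrane and 3 short-chain genes, 3 genes of the basement membrane zone (Col15a1, Col18a1 and Col7a1), and Col28a1, which was placed in no class.

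Libraries held between 5711553 and 10198304 counts. Levels are given as CPM, the read count of a gene relative to library size with TMM scaling factors, and a gene at 1 CPM rests on few reads. Epithelial markers were abundant, with Epcam, an epithelial adhesion molecule, at 953 to 1443 CPM in Sgo1-/+ and 893 to 1399 CPM in WT libraries. Markers of the cells that make most fibrillar collagen were low, since 13 fibroblast markers other than collagens summed to 6.06 to 13.8 CPM in Sgo1-/+ and 7.82 to 29.5 CPM in WT libraries. Sgo1, the targeted gene, had 2.32 ± 0.406 CPM in Sgo1-/+ and 3.63 ± 1.78 CPM in WT (SD, n = 6 each). Its log2 change was -0.67 ± 0.31 (SE; unadjusted p = 0.0483, adjusted p = 0.517, edgeR). By permutation the mean log2 CPM differed by -0.49 (exact two-sided p = 0.126), and by -0.18 with total counts in place of TMM (exact p = 0.673). Its 2 groups overlapped, with 1.83 to 2.76 CPM in Sgo1-/+ and 1.48 to 6.77 CPM in WT, so its level did not tell every library's genotype.

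A group of 4 collagen genes turned out to vary together across the libraries (Col15a1, Col18a1, Col24a1 and Col27a1). Some genes that are not collagens followed Col15a1 more closely, so this relation is not shown to be particular to collagens. The upstream sequences of these 4 are shown to let the reader see how far they resemble each other. Each is the stretch of the 250 bases before the gene's start site that lies in no annotated exon, read from the RefSeq promoter table of build GRCm38.p6, which held 35 of the 43 genes. They lie at chr4:47207762-47208011 on the plus strand (Col15a1), chr10:77166549-77166780 on the minus strand (Col18a1), chr3:145292222-145292471 on the plus strand (Col24a1) and chr4:63215162-63215411 on the plus strand (Col27a1, within the gene's span in the deposited files). Capitals mark matches, on either strand and without overlap, to TATAAA, the TATA box, CCAAT, and GGGCGG, the GC box.
Col15a1: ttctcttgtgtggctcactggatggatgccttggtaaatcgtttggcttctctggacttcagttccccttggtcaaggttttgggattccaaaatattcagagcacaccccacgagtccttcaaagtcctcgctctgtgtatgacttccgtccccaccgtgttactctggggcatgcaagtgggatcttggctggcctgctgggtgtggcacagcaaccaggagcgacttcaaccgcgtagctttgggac
Col18a1: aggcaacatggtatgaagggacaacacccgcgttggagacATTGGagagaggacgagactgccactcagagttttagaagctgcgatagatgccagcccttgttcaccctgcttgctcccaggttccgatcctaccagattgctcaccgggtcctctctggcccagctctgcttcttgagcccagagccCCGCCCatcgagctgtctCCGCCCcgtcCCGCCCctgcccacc
Col24a1: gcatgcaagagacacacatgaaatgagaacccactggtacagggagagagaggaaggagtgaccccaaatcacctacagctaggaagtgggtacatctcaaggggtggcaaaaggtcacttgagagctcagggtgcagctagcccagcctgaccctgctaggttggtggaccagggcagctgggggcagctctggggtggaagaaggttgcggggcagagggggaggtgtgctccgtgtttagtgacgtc
Col27a1: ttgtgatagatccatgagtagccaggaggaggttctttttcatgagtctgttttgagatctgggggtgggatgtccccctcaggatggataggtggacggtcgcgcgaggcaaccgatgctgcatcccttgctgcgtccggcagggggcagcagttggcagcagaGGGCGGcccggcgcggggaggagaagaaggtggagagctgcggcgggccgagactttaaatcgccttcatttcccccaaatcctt
The Col15a1 and Col24a1 stretches held none of these 3 motifs, Col27a1 held 1 GGGCGG, and Col18a1 held 3 GGGCGG and 1 CCAAT. Of 32817 mouse promoters, 12.4% held TATAAA, 33.8% held CCAAT and 32.7% held GGGCGG in the 250 bases before the start. No motif of the 3 was shared by all 4 genes.

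Most collagen genes were sparsely read in this mucosa. Only 19 of the 43 passed the filter on low counts and were tested, namely 8 fibrillar, 3 fibril-associated, 3 type IV, 2 type VI and 1 short-chain gene and 2 genes of the basement membrane zone. Summed over all 43 genes, collagen reads came to between 54.5 and 447 CPM in Sgo1-/+ libraries, with a median of 112 CPM, and to between 111 and 931 CPM in WT libraries, with a median of 237 CPM. Much of that sum was a single gene. Col15a1 took 4.14% to 74.9% of the collagen sum in Sgo1-/+ libraries and 44.9% to 78.6% in WT libraries. Without Col15a1 the other 42 genes summed to 52.3 to 112 CPM in Sgo1-/+ and 58 to 199 CPM in WT, and the ranges overlapped widely.

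Per kilobase of exon, which allows levels of different genes to be set side by side, Col15a1 had the highest mean, at 11.8 ± 20.4 CPM per kb in Sgo1-/+ and 37.2 ± 40.4 CPM per kb in WT (SD, n = 6 each). It was the highest collagen in 3 of the 6 Sgo1-/+ libraries and in 6 of the 6 WT libraries, while Col8a1, Col20a1 and Col16a1 led in Sgo1-/+ replicates 1, 2 and 5. The next by mean over the 12 libraries was Col8a1, a short-chain collagen of vessel-associated networks, at 1.39 ± 0.891 CPM per kb in Sgo1-/+ and 0.986 ± 0.387 CPM per kb in WT. Col18a1, Col3a1, Col6a1, Col20a1, Col16a1, Col1a2, Col14a1, Col1a1, Col24a1 and Col4a1 followed, with means over the 12 libraries between 0.852 and 0.441 CPM per kb. Col3a1 and Col1a1, the usual leading collagens of connective tissue, therefore stood at 0.775 and 0.482 CPM per kb, under 1 CPM per kb. Neighbours in this order differed by less than the SD between libraries. This holds for the step from Col15a1 as well, since its SD exceeded its mean in both genotypes.

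**Figure D1:**
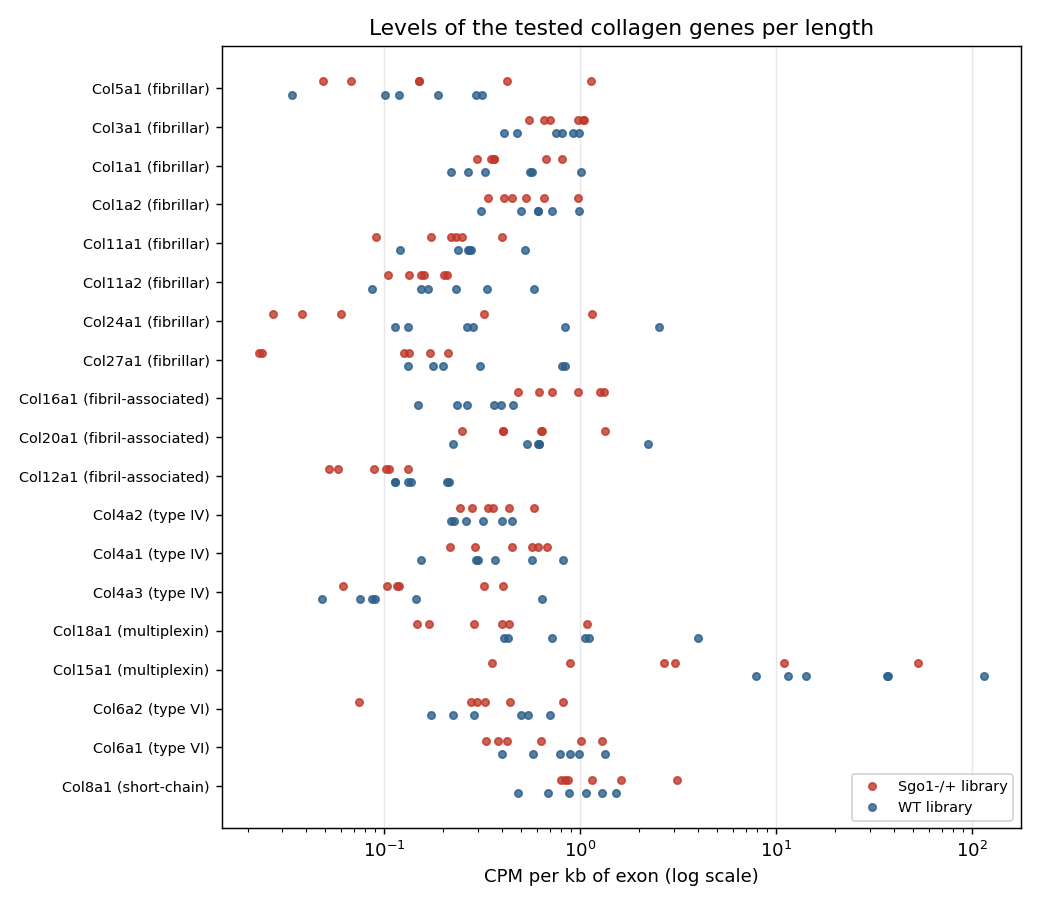
Levels of the 19 tested collagen genes in CPM per kb of exon on a log scale, each point a library, with Sgo1-/+ above WT for each gene. Col15a1 spans the widest range, reaching from among the other genes to well above them, and Col16a1 is the gene whose genotypes do not overlap; 1 Col24a1 value of 0 is not drawn.

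Between genotypes, edgeR's quasi-likelihood test called no collagen gene at the adjusted threshold of 0.05, and 0 of all 13889 genes (0%). At an unadjusted p under 0.05 there were 4 collagen genes of 19, against 1340 of all 13889 genes (9.65%). Col16a1 was the 1 of these with a higher mean in Sgo1-/+ (background 4.56%), and Col27a1, Col18a1 and Col12a1 were the 3 with a lower one (background 5.08%). DESeq2, run as an alternative, called 30 of the 13850 genes to which it gave an adjusted p (0.217%), among them 1 collagen gene, Col16a1. In bulk tissue, fewer cells of a type and less RNA per cell cannot be told apart.

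Of the 19 tested genes, 7 had a log2 change above 0 and 12 below it, with a median of -0.14, while 49.0% of all genes tested were above 0 and their median was -0.0056. This split depends on the scaling and on a few libraries. With total counts in place of TMM, which moved the median of all genes to 0.313, 13 collagen genes were above 0 and 6 below, with a median of 0.25. On the TMM scale 11 were above 0 and 8 below without WT replicate 5, with a median of 0.15. The same split, with a median of 0.21, was found without Sgo1-/+ replicate 3 and WT replicates 3 and 5, and in the 4 libraries whose deposited column names carry an additional suffix it was 10 and 9, with a median of 0.20. Statements on direction are therefore relative to the TMM scale, whose median over all genes is close to 0.

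Col16a1 had the clearest difference of any collagen gene. It encodes the chain of collagen XVI, a fibril-associated collagen that binds to the surface of fibrils and to microfibrils near basement membranes, and it lies on chromosome 4 from 130047840 to 130099283 on the plus strand of mm10. Its level was 3.26, 6.57, 4.14, 8.92, 8.48 and 4.84 CPM in Sgo1-/+ replicates 1 to 6, against 1.78, 3.05, 1, 2.44, 2.65 and 1.58 CPM in WT replicates 1 to 6. On this TMM scale the groups did not overlap, and the lowest Sgo1-/+ library lay just above the highest WT library. Scaled by total counts the groups overlapped. Sgo1-/+ replicate 3, with 18 of 5805514 counts, then lay below WT replicate 2, with 32 of 8729081 counts. On the TMM scale, complete separation with the higher values in Sgo1-/+ was found for 31 of the 13889 genes (0.223%). Col16a1 was the only tested collagen among them. With the lower values in Sgo1-/+ such separation was found for 17 genes (0.122%) and no tested collagen.

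Mean Col16a1 levels were 6.03 ± 2.34 CPM in Sgo1-/+ and 2.08 ± 0.762 CPM in WT (SD, n = 6 each). The log2 change was 1.51 ± 0.31 (SE; unadjusted p = 0.000283, adjusted p = 0.443, edgeR), or 2.86-fold, so it did not pass over all genes. DESeq2 gave the same log2 change with an adjusted p of 0.0223. The mean log2 CPM differed by 1.41 between genotypes (exact two-sided permutation p = 0.00216), and by 1.70 with total counts in place of TMM (exact p = 0.00433). Col16a1 had already stood out in earlier results from these files, so these p-values are not independent evidence. The gene was read lightly, with 4 to 112 counts per library and 453 in all.

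The Col16a1 difference was similar in the parts of the data that could be set apart. Leaving out each library in turn gave log2 changes from 1.38 to 1.69. It was 1.96 among the 4 libraries (2 of each genotype) whose deposited column names carry an additional sample suffix and 1.31 among the 8 without it. Without the 3 libraries in which 4 very abundant rows (Gm13340, AY036118, Gm13341 and Gm11410) took the largest share of counts, which are Sgo1-/+ replicate 3 and WT replicates 3 and 5, it was 1.51. With the summed level of 1575 olfactory and vomeronasal receptor rows as a covariate, added after the data were seen, it was 1.25 ± 0.36 (SE). In none of these edgeR fits did Col16a1 pass an adjusted p of 0.05.

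**Figure D2:**
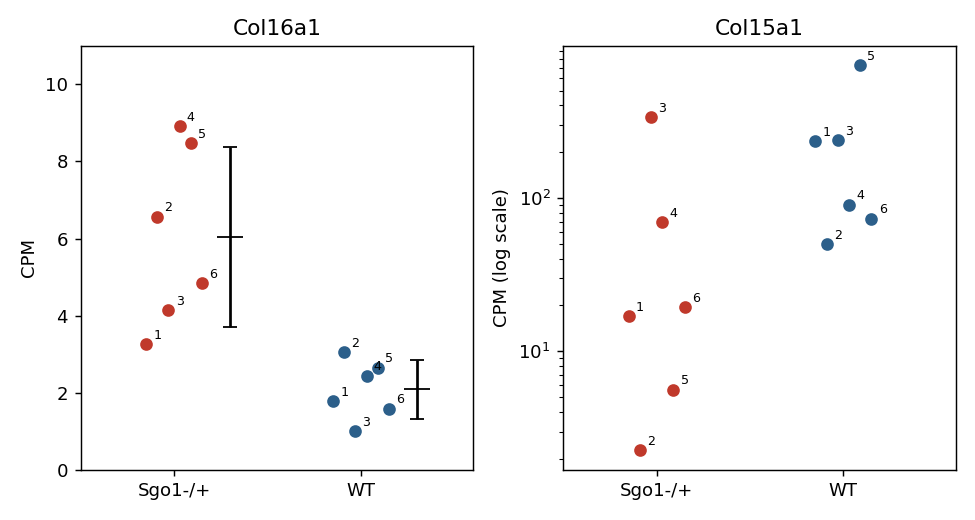
CPM of Col16a1 (linear axis) and Col15a1 (log axis) in each library, numbered by replicate, Sgo1-/+ left of WT; bars for Col16a1 are mean and SD. All 6 Sgo1-/+ libraries lie above all 6 WT libraries for Col16a1, whereas Col15a1 ranges from 2.26 to 335 CPM in Sgo1-/+ and from 50 to 732 CPM in WT.

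The other 2 tested fibril-associated collagens had log2 changes below 0. Col12a1, whose product coats fibrils in mechanically loaded tissue, ran from 0.788 to 2.01 CPM with a median of 1.44 CPM in Sgo1-/+ and from 1.72 to 3.25 CPM with a median of 2.04 CPM in WT. The ranges overlapped at their ends, and the log2 change was -0.74 ± 0.30 (SE; unadjusted p = 0.0284, adjusted p = 0.496, edgeR). Col20a1 had 3.13 ± 1.99 CPM in Sgo1-/+ and 4.12 ± 3.65 CPM in WT (SD, n = 6 each), with a log2 change of -0.35 ± 0.50 (SE) that was 0.0051 with total counts in place of TMM and 0.22 without WT replicate 5.

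The 6 fibril-associated genes that were not tested were Col9a1, Col9a2, Col9a3, Col14a1, Col19a1 and Col22a1. Col9a3, a chain of the cartilage-type collagen IX, summed to 27.8 counts in the 6 Sgo1-/+ libraries and 2.69 counts in the 6 WT libraries, and Col9a1, another chain of the same trimer, to 4.5 counts in Sgo1-/+ and 24.6 counts in WT. Col9a3 had 0.159 to 0.913 CPM in Sgo1-/+ and 0.191 CPM in WT replicate 2, with 0 or, in WT replicate 5, less than 1 count in the other WT libraries. Of the Col9a1 counts in WT, 14 were in replicate 5 and 6.5 in replicate 1. The sums of the 2 chains of one protein thus leaned opposite ways, on few reads. In edgeR without the filter the log2 change was 2.94 for Col9a3 (unadjusted p = 0.00697) and -2.73 for Col9a1 (unadjusted p = 0.0142). That fit called no gene, and 2507 of its 29232 genes had an unadjusted p under 0.05. Col14a1, whose product also binds fibrils, was uneven within genotypes, with 17.2 CPM in Sgo1-/+ replicate 3, 5.57 CPM in replicate 4 and 21.8 CPM in WT replicate 1, while 3 libraries had no read.

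Among the fibrillar collagens, the chains of the abundant tissue collagens hardly differed between genotypes. Col3a1, the chain of collagen III found in pliable tissue, ran from 5.34 to 10.2 CPM with a median of 8.25 CPM in Sgo1-/+ and from 4.02 to 9.62 CPM with a median of 7.69 CPM in WT, with a log2 change of 0.20 ± 0.25 (SE; adjusted p = 0.803, edgeR). Col1a1 and Col1a2, the 2 chains of collagen I, had log2 changes of -0.014 ± 0.38 and -0.14 ± 0.29 (SE), which turned to 0.35 and 0.25 with total counts in place of TMM and to 0.28 and 0.033 without WT replicate 5. Col1a1 averaged 3.11 ± 1.37 CPM in Sgo1-/+ and 3.22 ± 1.93 CPM in WT, and Col1a2 averaged 6.91 ± 2.83 CPM in Sgo1-/+ and 7.7 ± 2.78 CPM in WT (SD, n = 6 each). These differences were smaller than the spread between libraries. A p above the threshold does not show equal levels, and the SE leaves room for shifts of that size in either direction.

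The minor fibrillar chains were more uneven. Col27a1, a fibrillar collagen with a shortened triple helix best known from cartilage, had the lowest log2 change of the fibrillar genes. It ran from 0.296 to 2.76 CPM with a median of 1.68 CPM in Sgo1-/+ and from 1.72 to 10.9 CPM with a median of 3.29 CPM in WT. The WT mean was raised by replicates 1 and 5, at 10.5 and 10.9 CPM, and the ranges overlapped. Its log2 change was -1.84 ± 0.60 (SE; unadjusted p = 0.00828, adjusted p = 0.478, edgeR), and -1.48 without WT replicate 1.

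Col24a1, a fibrillar collagen known in mouse from developing bone and cornea, ran from 0 to 8.73 CPM with a median of 0.372 CPM in Sgo1-/+ and from 0.858 to 19.1 CPM with a median of 2.08 CPM in WT. Single libraries stood far out in both genotypes. Its log2 change was -1.52 ± 1.03 (SE; unadjusted p = 0.163, adjusted p = 0.648, edgeR), and it was -0.54 without WT replicate 5 and -2.76 without Sgo1-/+ replicate 3. Col5a1, a chain of the collagen V that nucleates fibrils, had the highest log2 change of the class at 0.84 ± 0.73 (SE), with 9.65 CPM in Sgo1-/+ replicate 3 and 0.411 to 3.58 CPM in the other Sgo1-/+ libraries, against 0.287 to 2.67 CPM in WT, and was 0.042 without that library. Col11a1 and Col11a2, chains of collagen XI, had log2 changes of -0.31 ± 0.36 and -0.60 ± 0.41 (SE), the first of which was 0.025 and the second -0.18 with total counts in place of TMM.

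In all, 2 of the 8 tested fibrillar genes were above 0 on the log2 scale and 6 below it, with a median of -0.23. With total counts in place of TMM the split was 5 above and 3 below, with a median of 0.14, and without WT replicate 5 the median was -0.018. Summed over the 11 fibrillar genes, levels were 30.4 ± 9.65 CPM in Sgo1-/+ and 38.2 ± 20.1 CPM in WT (SD, n = 6 each). The fibrillar genes not tested were Col2a1, the cartilage collagen, with 4.22 counts in all, Col5a3, with 23.5, and Col5a2, with 191 counts that were concentrated in a few libraries, at 5.57 CPM in Sgo1-/+ replicate 4 and 5.49 and 6.63 CPM in WT replicates 1 and 5.

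Type IV collagen, the network of the basement membrane, showed no difference between genotypes beyond the spread. Col4a1 and Col4a2 encode the chains of its ubiquitous form, lie head to head on chromosome 8 and overlap at their starts. Col4a1 ran from 1.61 to 5.02 CPM with a median of 3.79 CPM in Sgo1-/+ and from 1.15 to 6.1 CPM with a median of 2.48 CPM in WT. Col4a2 ran from 1.61 to 3.84 CPM with a median of 2.3 CPM in Sgo1-/+ and from 1.44 to 2.97 CPM with a median of 1.91 CPM in WT. Their log2 changes were similar, at 0.24 ± 0.38 and 0.27 ± 0.28 (SE; adjusted p = 0.845 and 0.756, edgeR).

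Col4a3, a chain of the form typical of kidney and lung, had a log2 change of 0.16 ± 0.64 (SE), with 1.87 ± 1.39 CPM in Sgo1-/+ and 1.8 ± 2.26 CPM in WT (SD, n = 6 each). Its highest libraries were Sgo1-/+ replicate 6, at 4.02 CPM, replicate 3, at 3.22 CPM, and WT replicate 5, at 6.37 CPM. It was -0.27 without Sgo1-/+ replicate 6, -0.067 without WT replicate 2 and 1.04 without WT replicate 5. All 3 tested type IV genes were above 0 with the 12 libraries, with a median log2 change of 0.24 that ran from 0.06 to 0.54 when each library was left out and was 0.88 without the 3 libraries richest in the abundant rows. In the 8 libraries without the column suffix the median was -0.21, with 1 gene above 0 and 2 below. Col4a4, Col4a5 and Col4a6 were not tested, with 7.39, 61.3 and 60.6 counts in all. Summed over the 6 genes, type IV collagen stood at 8.95 ± 3.26 CPM in Sgo1-/+ and 8.74 ± 5.29 CPM in WT (SD, n = 6 each).

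The multiplexins of the basement membrane zone had the lowest median log2 change of the classes, at -1.66 over Col15a1 and Col18a1, but with wide errors. Col15a1 lies on chromosome 4 from 47208161 to 47313167 on the plus strand of mm10. It had 17, 2.26, 335, 69.6, 5.62 and 19.3 CPM in Sgo1-/+ replicates 1 to 6, against 233, 50, 237, 90, 732 and 73.1 CPM in WT replicates 1 to 6. In Sgo1-/+ 4 of the 6 libraries lay below every WT library, while replicate 3 lay above all WT libraries but one. The highest library exceeded the lowest 324-fold, and the log2 change of -1.66 ± 1.02 (SE) did not pass (unadjusted p = 0.125, adjusted p = 0.613, edgeR). Single libraries moved it widely, to -3.37 without Sgo1-/+ replicate 3 and to -0.88 without WT replicate 5.

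Col18a1, whose C-terminal fragment is endostatin, ran from 1.03 to 7.59 CPM with a median of 2.4 CPM in Sgo1-/+ and from 2.86 to 28.1 CPM with a median of 6.22 CPM in WT. The highest libraries were again Sgo1-/+ replicate 3 and WT replicate 5, and the genotypes overlapped. Its log2 change was -1.65 ± 0.61 (SE; unadjusted p = 0.0173, adjusted p = 0.486, edgeR), and it was -0.88 without WT replicate 5. Col18a1 overlaps the folate carrier gene Slc19a1 on the opposite strand, and whether counting used strand is not stated for these files. Col7a1, the chain of the anchoring fibrils under squamous epithelium, was not tested, with 61.5 counts in Sgo1-/+ and 44.7 counts in WT libraries.

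Col15a1, chosen for comparison as the member with the highest mean level per kb, varied across libraries together with 3 other collagens. The share of all tested genes that followed Col15a1 as closely was not counted, so this relation is not shown to be particular to collagens. Among 18 relations with the other tested members over the 12 libraries (log2 CPM, 100000 permutations), Pearson's r was 0.93 for Col18a1, 0.91 for Col27a1 and 0.90 for Col24a1, and Spearman's rho was 0.97, 0.92 and 0.90. The permutation p of r was 3e-05 for Col18a1, 5e-05 for Col27a1 and 7e-05 for Col24a1, each with an adjusted p of 0.00042, and the permutation p of rho was 1e-05, the smallest the permutations can give, for Col18a1, 0.0001 for Col27a1 and 0.00017 for Col24a1, with adjusted p-values of 0.00018, 0.0009 and 0.00102. The relations held within each genotype, where r was 0.97, 0.89 and 0.93 within Sgo1-/+ and 0.95, 0.88 and 0.79 within WT. Without the 2 libraries farthest from the median of Col15a1, Sgo1-/+ replicates 2 and 5, r was 0.91, 0.80 and 0.89, and in the 8 libraries without the column suffix it was 0.91, 0.94 and 0.85.

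The other collagens did not follow Col15a1 to that degree. Col3a1, Col1a1 and Col1a2 had r of 0.14, 0.17 and 0.29, and Col4a1 and Col4a2 had r of 0.044 and -0.21, with adjusted permutation p-values of 0.592 or more. Col11a1 passed by rank only, with r of 0.59 (permutation p = 0.0429, adjusted 0.129) and rho of 0.80 (permutation p = 0.00322, adjusted 0.0145). Col16a1 leaned the opposite way, with r of -0.60 (permutation p = 0.0391, adjusted 0.129), and within Sgo1-/+ and within WT r was -0.29 and -0.15.

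**Figure D3:**
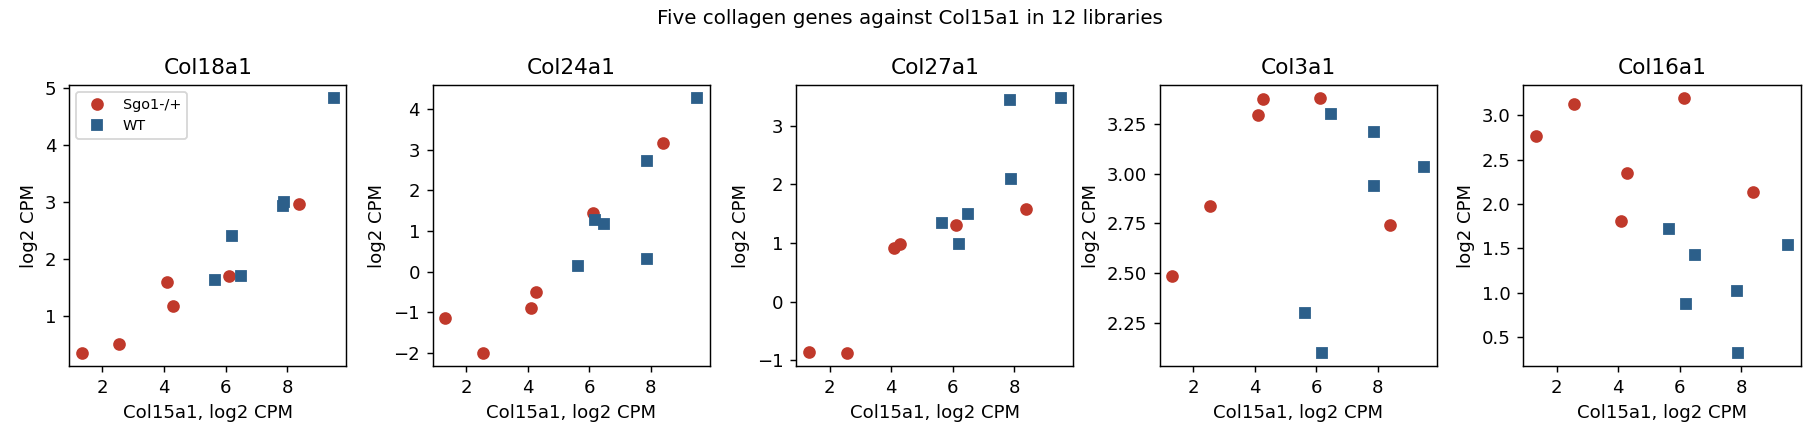
Log2 CPM of Col18a1, Col24a1, Col27a1, Col3a1 and Col16a1 against log2 CPM of Col15a1, each point a library (Sgo1-/+ circles, WT squares). The first 3 genes follow Col15a1 in both genotypes (r 0.93, 0.90 and 0.91), Col3a1 does not (r 0.14), and Col16a1 leans downward (r -0.60).

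Several library features moved in part with these 4 genes. The 4 abundant rows named above took 14.3% to 40.6% of counts in Sgo1-/+ and 17.7% to 44% in WT, and were highest in Sgo1-/+ replicate 3 and WT replicates 3 and 5, which were also among the libraries highest in Col15a1. The receptor rows, which belong to sensory neurons and of which 1150 of 1575 had a count, summed to 791 to 2740 CPM in Sgo1-/+ and 1405 to 3891 CPM in WT, again highest in these 3 libraries. Enteric glia markers, 5 of 5 found, summed to 3.74 to 43.4 CPM in Sgo1-/+ and 6.39 to 66.3 CPM in WT, and pericyte markers, 6 of 6 found, to 8.18 to 90.3 CPM in Sgo1-/+ and 17.2 to 112 CPM in WT, with no marker of either list at 0 in every library. Macrophage markers, 5 genes listed under 6 symbols and all found, summed to 15.9 to 80.9 CPM in Sgo1-/+ and 21.6 to 113 CPM in WT. They were highest in the same 3 libraries, with none at 0 in every library. Other marker lists did not all follow. Smooth muscle markers summed to 109 to 146 CPM in Sgo1-/+ and 123 to 138 CPM in WT. Endothelial markers were highest in Sgo1-/+ replicate 1, at 213 CPM, and adipocyte markers in Sgo1-/+ replicate 4, at 188 CPM. Fibroblast markers were highest in WT replicate 5, at 29.5 CPM. The match was not complete. Sgo1-/+ replicate 2, the lowest in Col15a1 at 2.26 CPM, had 24.1% in the abundant rows, 1912 CPM of receptors and 51.5 CPM of macrophage markers. WT replicate 1, at 233 CPM of Col15a1, had 23.3%, 1867 CPM and 32.5 CPM. The defining marker of glia, Sox10, had 0.197 to 19.8 CPM in Sgo1-/+ and 2.67 to 35.6 CPM in WT, and that of pericytes, Rgs5, stayed low at 0.616 to 2.83 CPM in Sgo1-/+ and 0.431 to 3.5 CPM in WT.

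Fits that took these features into account gave different sizes. With the receptor sum as a covariate, the log2 change was -0.42 for Col15a1, -0.53 for Col18a1, -0.30 for Col24a1 and -1.51 for Col27a1, and no collagen with a negative log2 change kept an unadjusted p under 0.05. Without the 3 libraries richest in the abundant rows it was -2.26 for Col15a1, -1.12 for Col18a1, -1.83 for Col24a1 and -1.67 for Col27a1, on 5 Sgo1-/+ and 4 WT libraries. The part of glial, pericyte or macrophage RNA in these differences was not tested. Profiles like that of Col15a1 over the 12 libraries were looked up after its values were seen. Only protein-coding genes above a minimum mean count were searched, without provisional symbols such as Gm or Rik names. The 4 abundant rows were therefore not candidates. The most alike among the genes searched were Csf2rb, Slc26a7, Plcl1, Tmem8c, Nlrp4d and Ugt8a, with Pearson's r of 0.997 to 0.991. None of these 6 is a collagen. Csf2rb, the closest, ran from 0.514 to 78.8 CPM in Sgo1-/+ and from 13.7 to 206 CPM in WT. Tmem8c, the highest in level, ran from 4.31 to 791 CPM in Sgo1-/+ and from 130 to 1110 CPM in WT. What sets the profile that Col15a1 shares with these genes was not tested.

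Type VI collagen, which forms beaded filaments beside basement membranes, did not differ beyond the spread. Col6a1 ran from 1.44 to 5.66 CPM with a median of 2.3 CPM in Sgo1-/+ and from 1.75 to 5.84 CPM with a median of 3.66 CPM in WT, and Col6a2 from 0.616 to 6.76 CPM with a median of 2.59 CPM in Sgo1-/+ and from 1.44 to 5.84 CPM with a median of 3.27 CPM in WT. Their log2 changes were -0.27 ± 0.37 and -0.066 ± 0.47 (SE; adjusted p = 0.826 and 0.975, edgeR), and both turned positive, to 0.092 and 0.37, with total counts in place of TMM. Col6a3, Col6a4, Col6a5 and Col6a6, which encode alternatives for the remaining chain of the trimer, were not tested and had 132, 63.7, 110 and 96.7 counts in all. The last of these, Col6a6, had 27.7 counts in Sgo1-/+ libraries and 69 counts in WT libraries, of which 37 were in WT replicate 1.

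Col8a1, second to Col15a1 by mean level per kb, ran from 6.21 to 24.3 CPM with a median of 7.87 CPM in Sgo1-/+ and from 3.75 to 11.9 CPM with a median of 7.61 CPM in WT. Its log2 change of 0.51 ± 0.36 (SE; adjusted p = 0.665, edgeR) rested largely on Sgo1-/+ replicate 1, at 24.3 CPM, and was 0.11 without it. The other short-chain genes, Col8a2 and Col10a1, were not tested and had 38.4 and 12.1 counts in all. Without the filter their log2 changes were -1.37 and -0.063 (edgeR). The transmembrane collagens were all below the filter, Col13a1 with 14.3 counts, Col17a1, the collagen of hemidesmosomes, with 43.4, Col23a1 with 77.5 and Col25a1 with 104. Col28a1 had 103 counts in all, 25 of them in WT replicate 5.

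**Figure D4:**
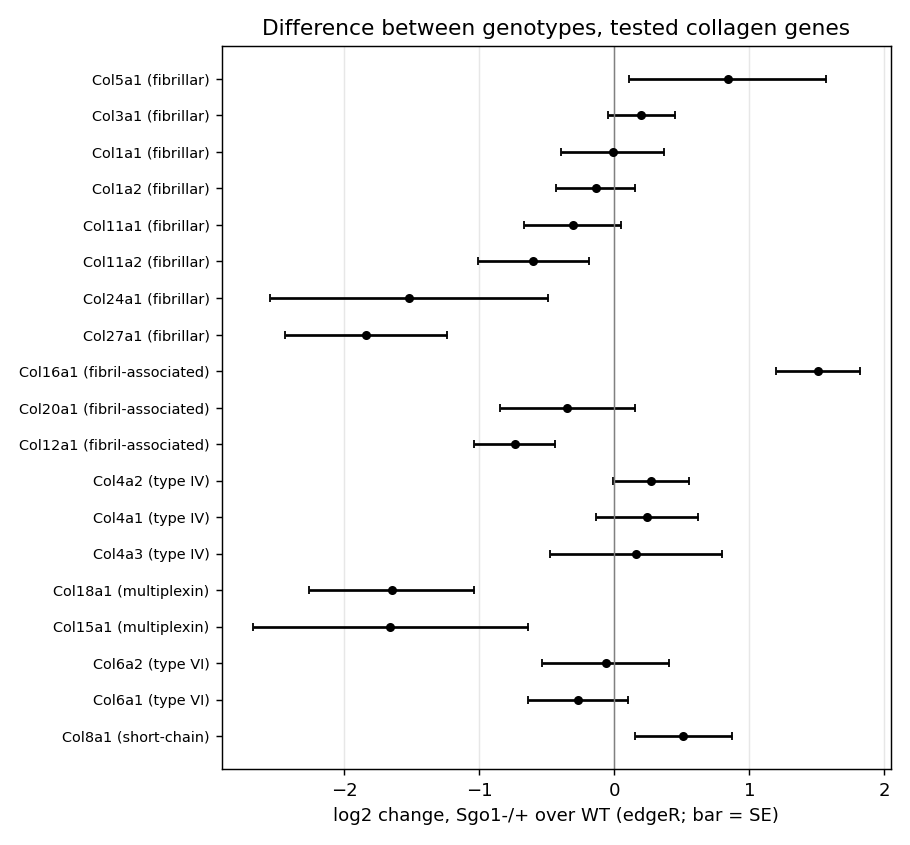
Log2 change (Sgo1-/+ over WT) of the 19 tested collagen genes with its SE from edgeR, grouped by class. Col16a1 lies highest at 1.51, Col27a1, Col15a1, Col18a1 and Col24a1 lie below -1.5, and the chains of types I, III, IV and VI lie within 0.3 of 0.

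Genes that act on collagen were examined in 6 lists, of which 62 members were tested and edgeR called 0 after adjustment. Among enzymes that modify and fold the chains, 2 of 12 had an unadjusted p under 0.05. P4ha1, a catalytic subunit of prolyl 4-hydroxylase, had 12.4 ± 1.61 CPM in Sgo1-/+ and 16 ± 3.99 CPM in WT, with a log2 change of -0.38 ± 0.17 (SE) that was -0.037 with total counts in place of TMM. Crtap, part of the prolyl 3-hydroxylation complex, had 5.24 ± 1.23 CPM in Sgo1-/+ and 3.53 ± 1.28 CPM in WT, with a log2 change of 0.57 ± 0.26 (SE). The median of this list was 0.0065.

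Of 7 tested genes for propeptide cleavage and crosslinking, 1 was above 0 and 6 below, with a median of -0.24. Tgm2, a transglutaminase that crosslinks matrix proteins, was the 1 with an unadjusted p under 0.05, at 15.8 ± 7.39 CPM in Sgo1-/+ and 27.4 ± 12.5 CPM in WT and a log2 change of -0.80 ± 0.31 (SE), which was -0.51 without WT replicate 5. Bmp1, which cleaves the C-propeptides of fibrillar procollagens, had a log2 change of -0.41 ± 0.25 (SE), and of -0.068 with total counts. Of 7 tested collagen and basement membrane receptors, 2 had an unadjusted p under 0.05. Itga1, the alpha subunit of a collagen-binding integrin, had 9.89 ± 0.834 CPM in Sgo1-/+ and 7.37 ± 1.09 CPM in WT and a log2 change of 0.42 ± 0.14 (SE), and Itgb4, of the laminin receptor of hemidesmosomes, had 0.22 ± 0.088 (SE).

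Among collagen breakdown genes 1 of 6 had an unadjusted p under 0.05. This was Mmp15, a membrane-bound matrix metalloproteinase, with 135 ± 20.2 CPM in Sgo1-/+ and 181 ± 30.8 CPM in WT and a log2 change of -0.42 ± 0.13 (SE; adjusted p = 0.443), which was -0.080 with total counts in place of TMM. Mmp12, the macrophage elastase, had a log2 change of -0.13 ± 0.23 (SE) that turned to 0.26 with total counts in place of TMM. Of 17 tested partners in the basement membrane, 3 had an unadjusted p under 0.05, and the 2 chosen by p were Lamb3 and Lama5. Lamb3, a chain of the laminin under epithelia, had 132 ± 9.21 CPM in Sgo1-/+ and 165 ± 16.3 CPM in WT and a log2 change of -0.32 ± 0.09 (SE), which was 0.021 with total counts in place of TMM. Lama5, the alpha chain of adult epithelial laminin, had 6.66 ± 2.65 CPM in Sgo1-/+ and 3.71 ± 0.662 CPM in WT and a log2 change of 0.85 ± 0.26 (SE).

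Of 13 tested fibril-binding proteoglycans and glycoproteins, 1 had an unadjusted p under 0.05. Prelp, a leucine-rich repeat protein that links collagen to basement membrane heparan sulfate, had 6.93 ± 3.34 CPM in Sgo1-/+ and 2.12 ± 1.31 CPM in WT (SD, n = 6 each). Its log2 change was 1.66 ± 0.44 (SE; unadjusted p = 0.0021, adjusted p = 0.443, edgeR), a size near that of Col16a1, and its ranges overlapped at 3.22 to 10.8 CPM in Sgo1-/+ and 0.25 to 4 CPM in WT. Fn1, which encodes fibronectin, had a log2 change of 0.99 ± 0.49 (SE). As with the collagens, none of these partner genes passed over all genes, and the unadjusted share among all genes was 9.65%.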

How the data were processed

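Messenger RNA from colonic mucosa was sequenced on an Illumina MiSeq after TruSeq V2 preparation, per the labels' protocols. The submitters' processing notes name mm10 and DESeq. The sources used here give no aligner, counter or strand setting. Every sample came as a table of 38592 rows whose raw column holds expected counts as deposited by the authors (69.6% of values above 0 are not whole, tolerance 0). The authors' normalized column is on a log2 scale. It matched a recomputation from the raw columns within 0.001 for 100.0% of 463104 values and was not used for tests. Gene positions are those of the files, and exon lengths were taken from GENCODE M21 for all 43 genes.

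Counts were rounded. The 505 rows without an Ensembl identifier (1.79% to 5.4% of counts per library) were dropped. Genes were fitted with edgeR 4.0.16 (R 4.3.3; TMM, filterByExpr at a minimum count of 10 and total of 15, glmQLFit and glmQLFTest), and p-values were adjusted by Benjamini-Hochberg over the 13889 genes tested. SE is the log2 change divided by the square root of F. Log2 CPM used a prior count of 2. For single values the genotype labels were permuted exactly (two-sided). As alternatives, DESeq2 1.42.0 and limma-voom (limma 3.58.1) were run, along with other scalings, filters and library subsets. In simulated data for this comparison with 13889 genes, edgeR found 54% of the 100 genes given a log2 change of 1 and 97% of the 100 given 2. Of its 162 calls, 11 were of unchanged genes. Simulated counts were drawn separately for each gene from the fitted trend of dispersion, and only genes averaging at least 10 counts were changed. Spread particular to a gene and variation shared between genes were left out. The shares found therefore do not give the power for single collagen genes. No libraries were identical, and replicates differed by far more than sampling noise (chi-square over degrees of freedom at least 14.7).

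Named are Col16a1 and, per class, the 2 tested genes with the smallest p and the one with the highest CPM, and of each partner list the 2 genes of lowest p that averaged 5 counts or more. Other members are given by values or counts, and Sgo1 (Sgol1 in the files) as the targeted gene. The members and lists were chosen with earlier results of these data known. Of the 43 genes, 7 overlap another row with at least 10 counts, among them Col4a1 with Col4a2 and Col18a1 with Slc19a1.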

Additional observations from a re-analysis of the deposited data

Results flagged for a closer look

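In 8 cases a value stood far from the other 5 libraries of its genotype, among 50 groups of 6 libraries checked. The rule set the gap to the nearest library against the range of CPM. Normally distributed values of unrelated genes would give about 1 in 20. That rate does not hold here, since Col15a1, Col18a1 and Col24a1 vary together and their CPM is skewed. Col15a1 had 335 CPM in Sgo1-/+ replicate 3, the nearest Sgo1-/+ library having 69.6 CPM, and 732 CPM in WT replicate 5, the nearest WT library having 237 CPM. Col18a1 stood out in the same libraries, at 7.59 CPM in Sgo1-/+ replicate 3 (nearest 3.03 CPM) and 28.1 CPM in WT replicate 5 (nearest 7.75 CPM). Col24a1 did so as well, at 8.73 CPM in Sgo1-/+ replicate 3 (nearest 2.47 CPM) and 19.1 CPM in WT replicate 5 (nearest 6.38 CPM). WT replicate 5 also had the highest Tgm2, at 52.5 CPM (nearest 24.9 CPM). Col8a1 had 24.3 CPM in Sgo1-/+ replicate 1 (nearest 12.6 CPM). Sgo1-/+ replicate 3 and WT replicate 5 are 2 of the 3 libraries in which the 4 abundant rows took the largest share of counts.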

How the results depend on the processing

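The count of collagen genes past an adjusted p of 0.05 was 0 in edgeR and moved to 1 with DESeq2 (Col16a1, log2 change 1.51, adjusted p 0.0223). The counts over all genes were 30 with DESeq2 and 1 in the libraries with the column suffix. Collagen genes at an unadjusted p under 0.05 numbered 7 with no filter (43 fitted), 2 without the suffix libraries and 1 with the receptor sum as covariate, and all genes numbered 2507 with no filter, 2031 in the suffix libraries and 617 in the others. Leaving out each library gave 2 (without WT replicate 5) to 6 (without Sgo1-/+ replicate 3) collagen genes and 881 to 2602 genes in all at that p, 0 calls, Col16a1 from 1.38 to 1.69, Sgo1 from -0.83 to -0.35, Col6a2 from -0.45 to 0.16, Mmp12 from -0.23 to 0.11, Col1a1 from -0.22 to 0.28, Col1a2 from -0.36 to 0.033, Col20a1 from -0.75 to 0.22 and Col4a3 from -0.27 to 1.04. Median log2 changes by class ran from -0.30 to -0.018 (fibrillar), 0.06 to 0.54 (type IV), -2.73 to -0.88 (basement membrane zone), -0.73 to 0.22 (fibril-associated), -0.50 to 0.026 (type VI) and 0.11 to 0.66 (short-chain). Summed CPM per kb over all 43 genes averaged 13.6 to 25.5 in Sgo1-/+ and 31.6 to 56.7 in WT when each library of that genotype was left out. Without the 3 libraries richest in the abundant rows the median was 0.88 for type IV and 0.21 for fibril-associated genes. It was 1.31 for type IV and 0.56 for type VI in the suffix libraries, against -0.21 and -0.63 in the others. With the receptor covariate it was 0.44 for fibril-associated genes.

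Signs turned for Col6a1 (0.092 with total counts, 0.49 in the suffix libraries), Col6a2 (0.37 with total counts, 0.011 with no filter, 0.63 in the suffix libraries, 0.43 without the 3 libraries), Mmp12 (0.0085 with limma-voom, 0.26 with total counts, 0.007 in the suffix libraries, 0.23 without the 3 libraries, 0.28 with the receptor covariate), Lamb3 (0.021 with total counts), Col4a2 (-0.0037 with the receptor covariate), Col4a1 (-0.21) and Col4a3 (-0.57, both without the suffix libraries) and Col5a1 (-0.51 in the suffix libraries). They also turned for Col1a1 (0.080 with limma-voom, 0.35 with total counts, 0.042 with no filter, 0.0073 with the replicate block, 0.40 in the suffix libraries, 0.25 without the 3 libraries), Col1a2 (0.25 with total counts, 0.20 in the suffix libraries, 0.15 without the 3 libraries), Col11a1 (0.025 with total counts, 0.27 with the receptor covariate) and Col20a1 (0.0051 with total counts, 0.21 without the 3 libraries, 0.44 with the receptor covariate). The cause was not tested. The receptor covariate, the legacy form of the quasi-likelihood fit, the alternatives for summed levels and those for tested genes outside the naming rule were chosen after seeing the data. The labels do not say that replicate numbers pair the samples. Deviations of same-numbered libraries correlated at 0.268, -0.0176, 0.725, 0.0579, -0.185 and 0.0142 for replicates 1 to 6. Only those of replicate 3 matched best with their own number. This check cannot exclude a pairing, and the main fit assumed none. With the replicate block 0 genes were called, 1706 had an unadjusted p under 0.05, and Col16a1 was 1.49. At this depth 24 of 43 genes had too few counts to be tested.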
